A study of Mus musculus with 12 samples.

Results

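The mRNAs of 8 proteins that bind AU-rich elements or act on the same 3′ untranslated regions (3′ UTRs) were followed in mouse acute myeloid leukemia cells after transcription was blocked. The members were picked by name, without a threshold on a measured value, but with earlier results of these data known. They are Zfp36, Zfp36l1, Zfp36l2, Zc3h12a, Khsrp, Elavl1, Tia1 and Tial1, 8 of the 24589 genes in the deposited table. All 8 passed the filter of 1 TPM or more in 2 or more libraries, which left 11152 genes for testing. TPM is the length-corrected share of a gene's transcripts in a library. The cells were an NRAS/AE9a leukemic line, named for an NRAS and an AML1-ETO9a driver that all groups share, and were either Tet2 knockout (KO) or wild type (WT). Both genotypes grew with the cytokines SCF, IL-3 and IL-6 under G418 and puromycin. They received actinomycin D, an inhibitor of transcription, at 5 µg/ml for 0, 4 or 8 h, which gives KO groups at 0, 4 and 8 h and WT groups at 0, 4 and 8 h with 2 libraries each. No second line of either genotype is named, so genotype cannot be told apart from other differences between the KO and WT cells. Whether the libraries of a group were separate cultures is not stated in the labels. The p-values therefore cover the spread between libraries, which may be technical.

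AU-rich elements are stretches of A and U in 3′ UTRs that shorten the life of many cytokine, growth factor and immediate early mRNAs. Zfp36 (tristetraprolin), Zfp36l1 and Zfp36l2 are zinc finger proteins that bind an AU-rich nonamer and bring the CCR4-NOT deadenylase to the mRNA, and Zfp36 is known to act on its own mRNA in this way. Khsrp is a KH-domain protein that also promotes decay, and Zc3h12a (Regnase-1) is an endonuclease that cuts stem-loops in the 3′ UTRs of inflammatory mRNAs. Elavl1 (HuR) competes for AU-rich elements and stabilises many of its targets, and Tia1 and Tial1 repress translation and take part in stress granules. In myeloid cells the Zfp36 family restrains the output of inflammatory cytokines.

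Of the 8 annotated 3′ UTRs, 4 held the nonamer TTATTTATT that the Zfp36 family recognises, against 7.4% of the 10430 tested genes that had an annotated 3′ UTR. Zfp36, Zfp36l1 and Zfp36l2 each held it 1 time and Elavl1 held it 8 times, counting overlaps, while Khsrp, Tia1, Tial1 and Zc3h12a held none in the transcript used. The sites are shown because they are the binding sequence of 3 of the members inside the members' own transcripts. Each line gives 30 bases of the sense strand (GENCODE M21, build GRCm38, which is mm10), with every nonamer in capitals, and for Elavl1 1 of its overlapping windows.
Zfp36, chr7:28376950-28376979, minus strand: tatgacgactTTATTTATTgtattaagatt
Zfp36l1, chr12:80108166-80108195, minus strand: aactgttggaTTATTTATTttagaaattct
Zfp36l2, chr17:84184913-84184942, minus strand: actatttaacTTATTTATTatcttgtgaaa
Elavl1, chr8:4285783-4285812, minus strand: tgaaaaTTATTTATTTATTTATTTATTttt
The 3 Zfp36 family sites share the 9 capital bases and differ around them, whereas the Elavl1 site is a run of overlapping nonamers. These 3′ UTRs were 774 nt long in Zfp36, 1835 nt in Zfp36l1, 1822 nt in Zfp36l2 and 4218 nt in Elavl1, against a median of 988 nt over the tested genes, and a longer 3′ UTR has more room for a match. The shorter pentamer ATTTA, which the nonamer contains, occurred 3 times in Zfp36, 9 times in Zfp36l1, 5 times in Zfp36l2, 17 times in Elavl1, 8 times in Tia1, 3 times each in Tial1 and Zc3h12a, and 1 time in Khsrp. It was present in 66.9% of tested 3′ UTRs. The transcripts of the other members lie at chr4:125118423-125127840 for Zc3h12a, chr17:57021051-57031488 for Khsrp, chr6:86404219-86433405 for Tia1 and chr7:128439777-128461672 for Tial1. Only the transcript's own strand was searched, and a match is a description of the letters and not evidence of binding.

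Depth is unknown, since TPM sum to the same total in every library. A library had 9093 to 10827 genes at 1 TPM or more. Libraries within a group had a Pearson r across genes of 0.991 to 0.994, and no library pair was identical. Tet2 itself had 10.2 and 10.2 TPM in KO libraries at 0 h, against 13.05 and 16.03 TPM in WT libraries at 0 h. This is a weak check of genotype, since a gene-level value does not show which exons were removed. All 10 myeloid markers were tested, with summed levels of 1105 to 1390 TPM over KO libraries and 1242 to 1671 TPM over WT libraries, and at 0 h 3 were higher and 7 lower in KO. Of the 6 T and NK cell markers only Nkg7 reached testing, with list sums of 9.24 to 29.4 TPM in KO and 1.85 to 12.2 TPM in WT libraries and with Cd3g and Ncr1 at 0. The 4 B cell markers summed to at most 1.01 TPM in KO and 1.02 TPM in WT libraries. The 5 erythroid markers summed to 2.33 to 9.86 TPM in KO and 2.31 to 8.55 TPM in WT libraries, with Hbb-bs at 0. The 5 stromal and endothelial markers summed to 144 to 163 TPM in KO and 59.7 to 160 TPM in WT libraries, from Pecam1, Pdgfrb and Fn1. All these ranges pool libraries of 0, 4 and 8 h. At 0 h, limma called 1 of the 3 tested stromal and endothelial markers higher and 1 lower in KO, where 14.3% of all tested genes were higher and 11.5% lower. The part of these differences in the results was not tested.

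At 0 h 1 of the 8 mRNAs, Zfp36l1, differed between KO and WT cells in the test, and after actinomycin D more of them did, in both directions. At 4 h the mRNAs of the decay-promoting Zfp36 family and of Zc3h12a were lower in KO than in WT cells, while that of Tial1 was higher. At 8 h Zfp36 and Zfp36l1 were still lower in KO, and Elavl1, Khsrp, Tia1 and Tial1 were higher. In limma tests over all genes with Benjamini-Hochberg adjustment and a threshold of 0.05, KO against WT at 0 h gave 0 members higher and 1 lower, where 14.3% of all tested genes were higher and 11.5% lower, and an unadjusted p under 0.05 also gave 0 higher and 1 lower. At 4 h it gave 1 member higher and 4 lower, against 24.9% higher and 13.7% lower of all tested genes. At 8 h it gave 4 members higher and 2 lower, against 37.3% higher and 12.1% lower. Read against that background, 4 of 8 higher at 8 h is close to the share of all genes. In bulk RNA, fewer cells of a type and less RNA per cell cannot be told apart. The median of all tested genes for KO against WT was itself 0.06, 0.10 and 0.20 on the log2(TPM + 1) scale at 0, 4 and 8 h. KO and WT libraries did not overlap for 6 of 8 members at 0 h, 7 at 4 h and 7 at 8 h, where 62.8%, 73.2% and 70.5% of tested genes did not overlap.

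**Figure D1:**
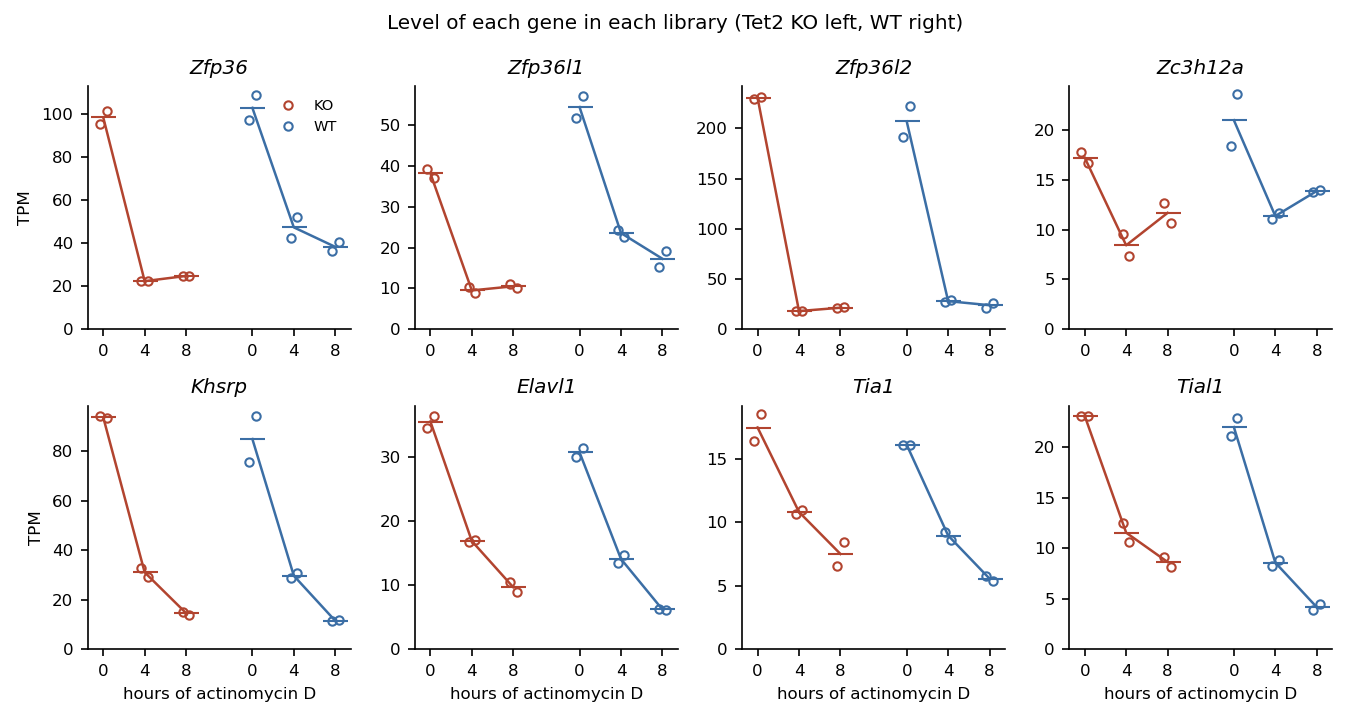
Level of each of the 8 genes in TPM (y axis, linear, from 0, with a scale of its own per gene) against hours of actinomycin D, KO on the left in red and WT on the right in blue. Circles are libraries, short bars are means of 2 libraries, and lines join the means. From 4 to 8 h the means of Khsrp, Elavl1, Tia1 and Tial1 fall in both genotypes. Those of the 3 Zfp36 family genes fall in WT and rise slightly in KO.

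Zfp36, the best known of the decay factors, was lower in KO cells at 4 and 8 h. It had 95.6 and 101 TPM in KO libraries at 0 h, then 22.3 and 22.4 at 4 h, and 24.8 and 24.7 after 8 h. In WT libraries it had 97.1 and 109 TPM at 0 h, then 42.4 and 52.3 at 4 h, and 36.2 and 40.4 after 8 h. The genotypes overlapped at 0 h, and at 4 and 8 h both KO libraries lay below both WT libraries. After 4 h 22.7% of the 0 h mean remained in KO cells and 46.0% in WT cells. On the log2(TPM + 1) scale Zfp36 in KO against WT was -0.06 ± 0.10 at 0 h (SE, n = 2 against 2 here and below, limma adjusted p = 0.725), -1.04 ± 0.10 at 4 h (adjusted p = 1.53e-05, limma) and -0.61 ± 0.10 at 8 h (adjusted p = 0.000392, limma). The 4 h and 8 h calls held in all 19 alternatives, including both other scalings of the libraries.

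Zfp36l1 was lower in KO cells at every time. Its levels were 39.3 and 37.1 TPM in KO libraries at 0 h, then 10.2 and 8.78 at 4 h, and 11.0 and 10.0 after 8 h. WT libraries had 51.7 and 57.2 TPM at 0 h, then 24.4 and 22.7 at 4 h, and 15.4 and 19.2 after 8 h. No KO library reached a WT library of the same time. The log2 change in KO against WT was -0.50 ± 0.12 at 0 h (limma adjusted p = 0.00884), -1.23 ± 0.12 at 4 h (limma adjusted p = 1.33e-05) and -0.66 ± 0.12 at 8 h (limma adjusted p = 0.00062). The Zfp36l1 call at 0 h was lost without KO 0 h replicate 2 (limma adjusted p = 0.0740) and without WT 0 h replicate 2 (0.0613), while the later calls held in all 19 alternatives.

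Zfp36l2, a relative that acts in the development of blood cells in mice, was the most abundant of the 8 at 0 h and the one that lost most. It had 230 and 231 TPM in KO libraries at 0 h, then 18.0 and 18.2 at 4 h, and 21.0 and 21.9 after 8 h. The WT libraries held 192 and 222 TPM at 0 h, then 27.3 and 28.6 at 4 h, and 21.6 and 26.3 after 8 h. KO libraries were above WT at 0 h and below at 4 h, and the genotypes overlapped at 8 h. Zfp36l2 in KO against WT had a log2 change of 0.16 ± 0.10 at 0 h (limma adjusted p = 0.287), -0.60 ± 0.10 at 4 h (limma adjusted p = 0.000631) and -0.14 ± 0.10 at 8 h (limma adjusted p = 0.257). At 8 h Zfp36l2 was called lower in KO under median-ratio scaling (log2 change -0.42, adjusted p = 0.000529 by limma) and under scaling to housekeeping genes (-0.41, adjusted p = 0.00149), and without WT 8 h replicate 1 (-0.28, adjusted p = 0.0435).

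The family as a whole can be read from the sum of its 3 members. The sum of TPM was 364 and 370 in KO libraries at 0 h, then 50.5 and 49.4 at 4 h, and 56.8 and 56.7 after 8 h. In WT libraries it was 340 and 388 at 0 h, then 94.2 and 104 at 4 h, and 73.1 and 85.9 after 8 h. The sums overlapped at 0 h and lay lower in both KO libraries at 4 and 8 h. The make-up of the family changed as well, since Zfp36l2 held 62.8% of the sum in KO and 56.8% in WT cells at 0 h, 36.2% in KO and 28.3% in WT cells at 4 h, and 37.8% in KO and 30.1% in WT cells at 8 h. Against the family, Elavl1 stood at a TPM ratio of 0.0952 and 0.0988 in KO libraries at 0 h, then 0.332 and 0.345 at 4 h, and 0.185 and 0.156 after 8 h. In WT libraries the ratio was 0.0884 and 0.0812 at 0 h, then 0.142 and 0.143 at 4 h, and 0.0859 and 0.0713 after 8 h. A ratio within a library does not depend on how libraries are scaled, and it was higher in both KO libraries at each time, by the most at 4 h.

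**Figure D2:**
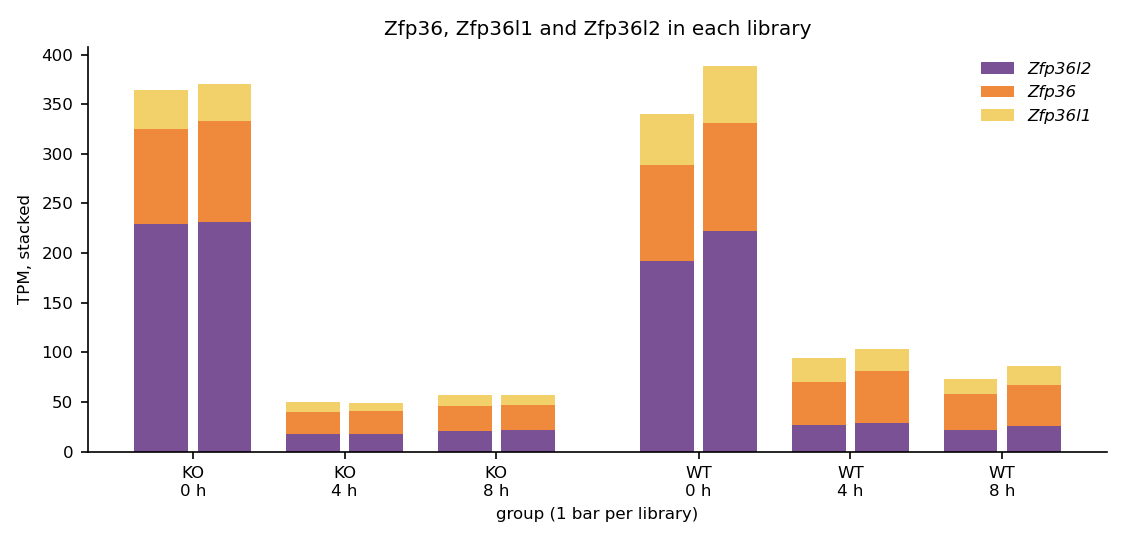
Stacked TPM of Zfp36l2, Zfp36 and Zfp36l1 (y axis, linear, from 0), 1 bar per library, with KO groups on the left and WT groups on the right in the order 0, 4 and 8 h. The bars are of like height at 0 h, and the 4 h bars reach 49.4 to 50.5 TPM in KO and 94.2 to 104 TPM in WT.

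Zc3h12a, the endonuclease, kept the largest share of its 0 h level at 8 h. It had 17.7 and 16.7 TPM in KO libraries at 0 h, then 9.52 and 7.33 at 4 h, and 12.7 and 10.7 after 8 h. The WT values were 18.4 and 23.6 TPM at 0 h, then 11.1 and 11.6 at 4 h, and 13.8 and 14.0 after 8 h. KO libraries were below WT at each time by a small margin, and in both genotypes the 8 h libraries lay above the 4 h libraries. The log2 change in KO against WT was -0.26 ± 0.14 at 0 h (limma adjusted p = 0.222), -0.40 ± 0.14 at 4 h (limma adjusted p = 0.0448) and -0.24 ± 0.14 at 8 h (limma adjusted p = 0.202). The Zc3h12a call at 4 h was lost in 8 of 19 alternatives. Its limma adjusted p was 0.321 without KO 4 h replicate 2, 0.107 without WT 4 h replicate 1, 0.166 without WT 4 h replicate 2, 0.0624 without KO 0 h replicate 1 and 0.0623 without KO 0 h replicate 2. At 8 h Zc3h12a was called lower in KO under median-ratio scaling (-0.51, limma adjusted p = 0.00624) and housekeeping scaling (-0.49, limma adjusted p = 0.00685).

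Khsrp had 94.3 and 93.3 TPM in KO libraries at 0 h, then 32.9 and 29.2 at 4 h, and 15.1 and 14.0 after 8 h. In WT libraries it had 75.8 and 94.2 TPM at 0 h, then 28.6 and 30.7 at 4 h, and 11.3 and 11.6 after 8 h. The genotypes overlapped at 0 and 4 h and were apart at 8 h, with KO above. In KO against WT the log2 change was 0.15 ± 0.11 at 0 h (limma adjusted p = 0.356), 0.06 ± 0.11 at 4 h (limma adjusted p = 0.684) and 0.32 ± 0.11 at 8 h (limma adjusted p = 0.0257). The Khsrp call at 8 h was lost under median-ratio scaling (log2 change 0.065, limma adjusted p = 0.507) and housekeeping scaling (0.059, limma adjusted p = 0.564), and without KO 8 h replicate 1 (adjusted p = 0.131), WT 8 h replicate 1 (0.0874) or WT 8 h replicate 2 (0.0565).

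Elavl1, the stabilising protein, had 34.7 and 36.6 TPM in KO libraries at 0 h, then 16.8 and 17.1 at 4 h, and 10.5 and 8.86 after 8 h. WT libraries had 30.1 and 31.5 TPM at 0 h, then 13.4 and 14.8 at 4 h, and 6.28 and 6.12 after 8 h. Both KO libraries lay above both WT libraries at each time. The log2 change in KO against WT was 0.20 ± 0.10 at 0 h (limma adjusted p = 0.187), 0.25 ± 0.10 at 4 h (limma adjusted p = 0.0807) and 0.56 ± 0.10 at 8 h (limma adjusted p = 0.000706). The Elavl1 call at 8 h held in all 19 alternatives, and 76.9% of tested genes had a lower log2 change there.

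Tial1 had the largest change of the 8 towards higher levels in KO. It had 23.1 and 23.1 TPM in KO libraries at 0 h, then 12.5 and 10.6 at 4 h, and 9.14 and 8.10 after 8 h. The WT libraries held 21.1 and 22.9 TPM at 0 h, then 8.27 and 8.85 at 4 h, and 3.88 and 4.42 after 8 h. KO libraries were above WT at each time, by a narrow margin at 0 h and by a wide one at 8 h. The log2 change in KO against WT was 0.07 ± 0.12 at 0 h (limma adjusted p = 0.726), 0.39 ± 0.12 at 4 h (limma adjusted p = 0.0225) and 0.90 ± 0.12 at 8 h (limma adjusted p = 5.1e-05). The 8 h call held in all 19 alternatives, and the Tial1 call at 4 h was lost without KO 4 h replicate 1 (limma adjusted p = 0.184), WT 4 h replicate 1 (0.120) or WT 4 h replicate 2 (0.0603).

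Tia1, its close relative, had 16.4 and 18.5 TPM in KO libraries at 0 h, then 10.7 and 11.0 at 4 h, and 6.58 and 8.42 after 8 h. The WT values were 16.1 and 16.1 TPM at 0 h, then 9.26 and 8.64 at 4 h, and 5.76 and 5.34 after 8 h. KO libraries were again above WT at each time. The log2 change in KO against WT was 0.11 ± 0.13 at 0 h (limma adjusted p = 0.584), 0.25 ± 0.13 at 4 h (limma adjusted p = 0.138) and 0.37 ± 0.13 at 8 h (limma adjusted p = 0.0278). The Tia1 call at 8 h was lost under median-ratio scaling (limma adjusted p = 0.429) and housekeeping scaling (0.451), and without KO 8 h replicate 2 (0.241) or WT 8 h replicate 2 (0.109).

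**Figure D3:**
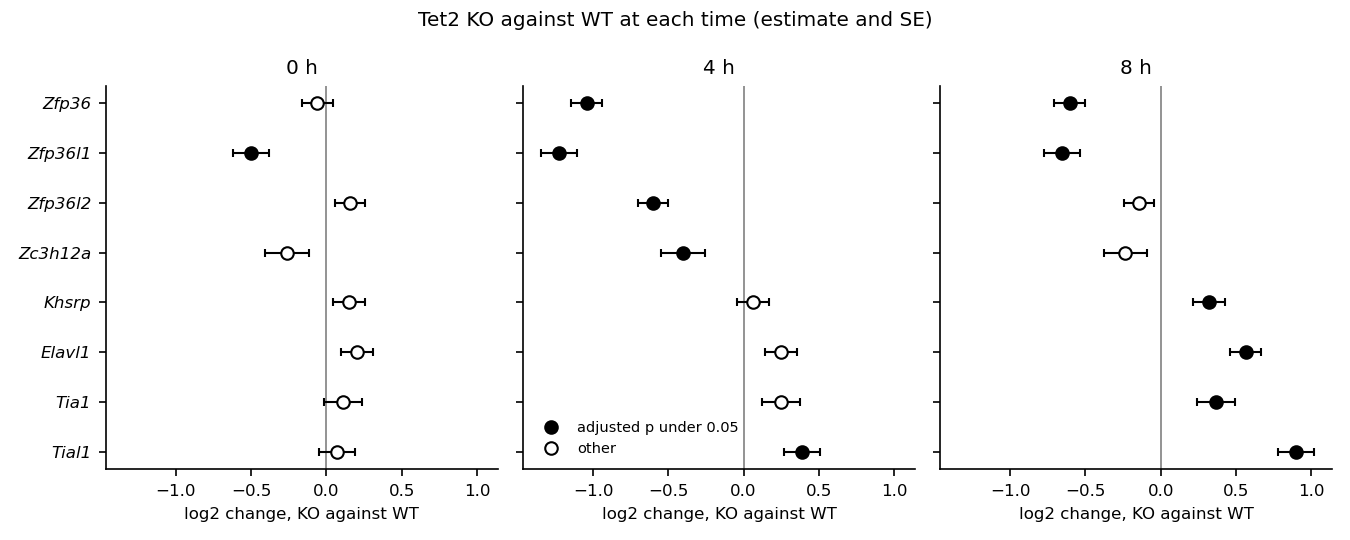
Log2 change of TPM + 1 in KO against WT (x axis) for the 8 genes (y axis) at 0, 4 and 8 h. Points are limma estimates, bars are SE, and filled points have an adjusted p under 0.05. At 4 h Zfp36, Zfp36l1, Zfp36l2 and Zc3h12a lie left of 0 with filled points, and at 8 h Khsrp, Elavl1, Tia1 and Tial1 lie right of 0.

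The order of the levels shifted with time. At 0 h it began with Zfp36l2, Zfp36 and Khsrp in both genotypes, and libraries of neighbours in that order did not overlap. At 4 h Khsrp was first in KO cells with a mean of 31.1 TPM and Zfp36 first in WT cells with 47.4 TPM, and at 8 h Zfp36 was first in both, with 24.8 TPM in KO and 38.3 TPM in WT cells. Neighbours whose libraries overlapped were Tia1 and Zc3h12a in KO cells at 0 h, and Tial1 and Tia1 as well as Zfp36l1 and Zc3h12a in KO cells at 4 h. They also included all neighbours from Zc3h12a down to Tia1 in KO cells at 8 h, Tial1 and Zc3h12a in WT cells at 0 h, and Khsrp with Zfp36l2 and Tia1 with Tial1 in WT cells at 4 h.

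Within each genotype, all 8 mRNAs lost share after actinomycin D. They were called lower at 4 h against 0 h in KO, where 68.0% of tested genes were lower, and in WT, where 71.0% were lower. They were likewise called lower at 8 h against 0 h in KO (75.4% of tested genes lower) and in WT (80.2% lower). Loss is therefore the rule among these genes, and the size of it is what sets members apart. TPM are shares, so each change is relative to the rest of its library, and the median change of all tested genes was -0.70 in KO and -0.81 in WT at 4 h, and -1.16 in KO and -1.40 in WT at 8 h.

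Zfp36l2 changed most, by -3.60 ± 0.10 in KO and -2.84 ± 0.10 in WT at 4 h (log2, SE), where 0.475% of tested genes in KO and 2.13% in WT changed further down. Its limma adjusted p was 1.76e-10 in KO and 1.28e-09 in WT. Zfp36 changed by -2.09 ± 0.10 in KO and -1.11 ± 0.10 in WT at 4 h, and Zfp36l1 by -1.90 ± 0.12 in KO and -1.17 ± 0.12 in WT. Between 4 and 8 h the 3 family members did not pass the test in KO cells on TPM as deposited (Zfp36 0.14, Zfp36l1 0.14 and Zfp36l2 0.23). Under median-ratio scaling all 3 were called higher over this interval in KO, Zfp36 by 0.63 (limma adjusted p = 0.000232), Zfp36l1 by 0.60 (limma adjusted p = 0.000356) and Zfp36l2 by 0.72 (limma adjusted p = 1.32e-05). That scaling moved the median change of all tested genes over the interval from -0.28 to 0.07 in KO. The share of all tested genes called higher under it is not given here. Zfp36l2 was also called higher in KO with the replicate number as a block (limma adjusted p = 0.0471) and in 4 of the fits that left out a library, with limma adjusted p down to 0.0328. In WT cells over the same interval, on TPM as deposited, Zfp36 fell by 0.29 (limma adjusted p = 0.0261) and Zfp36l1 by 0.43 (limma adjusted p = 0.00725), and Zfp36l2 had -0.22 (limma adjusted p = 0.0712). The Zfp36 call was lost without WT 4 h replicate 2 (limma adjusted p = 0.294) or WT 8 h replicate 1 (0.160), and the Zfp36l1 call without WT 4 h replicate 1 (0.0547) or WT 8 h replicate 1 (0.0817). Housekeeping scaling also ended the WT call of Zfp36 (-0.17, limma adjusted p = 0.123). Median-ratio scaling turned the direction in WT, with Zfp36 called higher by 0.38 (limma adjusted p = 0.00528), Zfp36l2 called higher by 0.44 (limma adjusted p = 0.000335) and Zfp36l1 at 0.22 (limma adjusted p = 0.0652).

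On TPM as deposited, Elavl1, Khsrp, Tia1 and Tial1 went on falling between 4 and 8 h in both genotypes, in KO by 0.75, 1.04, 0.48 and 0.38 and in WT by 1.07, 1.30, 0.60 and 0.89 on the log2 scale in that order of genes. Of the 8 members, 4 were called lower and 1 higher in KO between 4 and 8 h, where 43.1% of tested genes were lower and 8.97% higher, and 6 were called lower and 0 higher in WT, where 54.8% were lower and 6.9% higher. In WT, limma also gave 0 members higher at an unadjusted p under 0.05. The KO call of Tia1 was lost without KO 8 h replicate 1 (limma adjusted p = 0.0720), and that of Tial1 without KO 4 h replicate 1 (0.161) or KO 8 h replicate 2 (0.115). Median-ratio scaling ended the call of Tia1 in KO (-0.032, limma adjusted p = 0.865) and in WT (-0.0043, limma adjusted p = 0.982), and left Tial1 in KO at 0.079 (limma adjusted p = 0.521). Elavl1 and Khsrp were called lower in both genotypes, and Tial1 in WT, under both other scalings. By 8 h the change from 0 h was -2.61 in KO and -2.78 in WT for Khsrp, -1.78 in KO and -2.14 in WT for Elavl1, -1.33 in KO and -2.16 in WT for Tial1, and -1.13 in KO and -1.39 in WT for Tia1. Khsrp kept 15.5% of its 0 h mean in KO and 13.5% in WT cells, whereas Tia1 kept 42.9% in KO and 34.5% in WT cells.

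On TPM as deposited, Zc3h12a was the 1 member called higher between 4 and 8 h, in KO cells. Over that interval it had a log2 change of 0.43 ± 0.14 in KO (limma adjusted p = 0.0239) and of 0.27 ± 0.14 in WT (limma adjusted p = 0.129), and at 8 h 67.8% of the 0 h mean remained in KO and 66.1% in WT cells. The KO call of Zc3h12a was lost without KO 4 h replicate 2 (limma adjusted p = 0.222), without KO 8 h replicate 1 (0.159) and with no filter on low values (0.0514). In WT, Zc3h12a was called higher under median-ratio scaling (0.92, limma adjusted p = 0.000144) and housekeeping scaling (0.39, limma adjusted p = 0.0171). These directions depend on the scale of the libraries. The 25 housekeeping genes, picked as long-lived, gained share at 8 h with a median log2 change of 0.38 in KO (19 higher, 2 lower) and 0.30 in WT (15 higher, 6 lower), and scaling to them left all 8 members called lower at 4 and 8 h in both genotypes. Median-ratio scaling sets the typical gene near 0, and under it 4 members were called lower and 0 higher at 4 h in KO, 3 lower and 0 higher at 4 h in WT, 5 lower and 1 higher at 8 h in KO, and 4 lower and 2 higher at 8 h in WT. Zc3h12a was then higher at 8 h by 0.80 in KO (limma adjusted p = 0.000148) and by 1.04 in WT (limma adjusted p = 2.12e-05), and Zfp36 was higher at 8 h in WT by 0.26 (limma adjusted p = 0.0208). Zfp36l2 and Khsrp were lower at 8 h under it in both genotypes, by -1.96 in KO and -1.41 in WT for Zfp36l2 and by -1.22 in KO and -1.16 in WT for Khsrp. The share of all tested genes called under either of these scalings is not given here. The counts of members under the scalings therefore have no background to be read against.

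**Figure D4:**
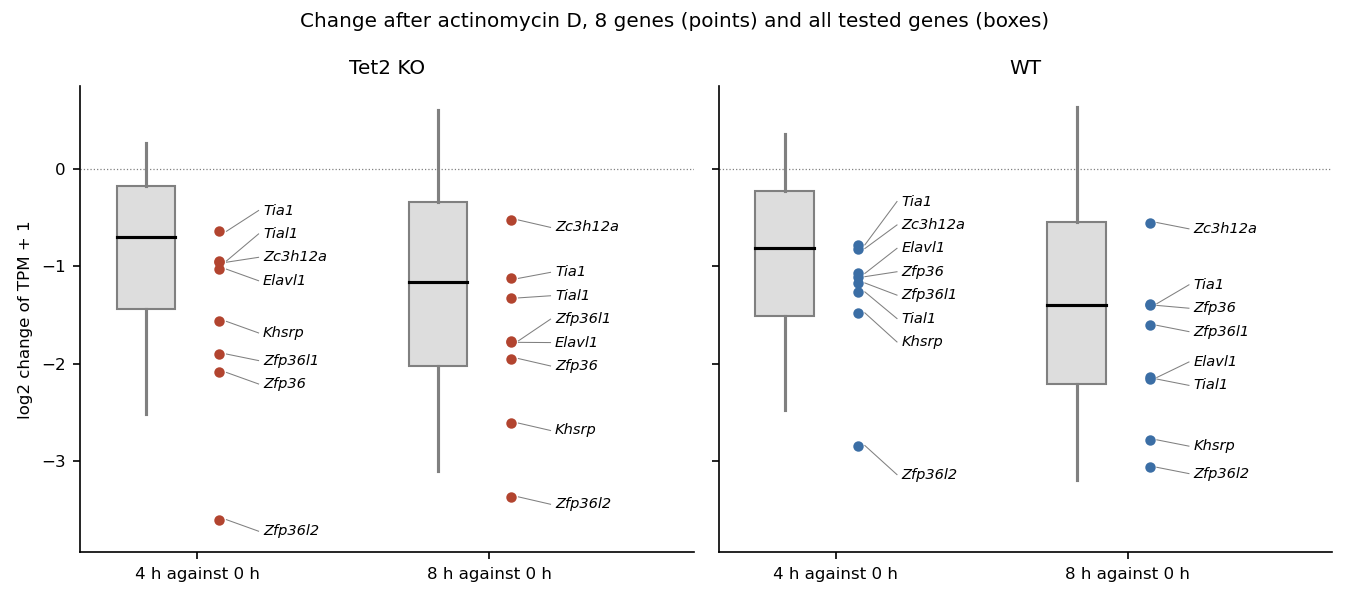
Log2 change of TPM + 1 at 4 h and at 8 h against 0 h (y axis) in KO cells (left panel) and WT cells (right panel). Points are the 8 genes, and boxes show all 11152 tested genes with the median as a line, quartiles as the box and the 5th and 95th percentiles as whiskers. Zfp36l2 lies below the lower whisker at 4 h in both genotypes, and Zc3h12a is the highest point at 8 h.

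Whether the loss itself differed between the genotypes was tested as the difference of the changes, KO minus WT. The changes of a genotype at 4 and at 8 h share their 0 h libraries. Over 4 h, limma called 2 members below 0, which lost more in KO than in WT, and 0 above, against 0.296% of tested genes below and 0.0538% above. They were Zfp36, with -0.98 ± 0.15 (limma adjusted p = 0.0167, n = 2 in each of 4 groups), and Zfp36l2, with -0.76 ± 0.14 (limma adjusted p = 0.0488). An unadjusted p under 0.05 gave 3 below and 0 above. The shares of all tested genes called are at the adjusted threshold. Unadjusted counts, here and elsewhere, therefore have no share to be read against. Zfp36l1 had -0.73 ± 0.17 (limma adjusted p = 0.0941) and was called under median-ratio scaling (-0.82, adjusted p = 0.0219) and housekeeping scaling (-0.66, adjusted p = 0.0461). Of the remaining members, Elavl1, Khsrp, Tia1 and Zc3h12a had differences between -0.14 and 0.14 and Tial1 had 0.32.

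Both 4 h calls were lost in several alternatives. For Zfp36, 7 of 19 alternatives ended the call, and the limma adjusted p ran from 0.00647 to 0.0841 over all 19. It was 0.0610 without KO 0 h replicate 1, 0.0841 without KO 0 h replicate 2, 0.0663 without KO 4 h replicate 1, 0.0687 without KO 4 h replicate 2, 0.0673 without WT 0 h replicate 1 and 0.0539 without WT 4 h replicate 2, while the difference stayed between -1.13 and -0.83. For Zfp36l2, 12 of 19 alternatives ended the call, 9 of them with a library left out, and all 19 gave a limma adjusted p of 0.00997 to 0.186.

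Over 8 h, 1 member lost less in KO than in WT and 1 lost more, against 17.3% of tested genes above and 2.63% below. The count of larger losses depended on the scale of the libraries. Zfp36l2, at -0.30 as deposited (limma adjusted p = 0.157), was called below 0 under median-ratio scaling (-0.56, limma adjusted p = 0.00404) and housekeeping scaling (-0.465, limma adjusted p = 0.0176). Zfp36l1, at -0.16 as deposited (limma adjusted p = 0.558), was called under median-ratio scaling (-0.43, limma adjusted p = 0.0449). It was not called under housekeeping scaling (-0.31, limma adjusted p = 0.187). Tial1 had a difference of 0.83 ± 0.17 (limma adjusted p = 0.00564), past 95.7% of tested genes, and its call held in all 19 alternatives. Zfp36 had -0.55 ± 0.15 (limma adjusted p = 0.0219), and its call was lost without KO 0 h replicate 2 (0.0878), KO 8 h replicate 1 (0.0528), WT 0 h replicate 1 (0.0552) or WT 8 h replicate 2 (0.0579). Between 4 and 8 h, in a contrast added after the values were seen, 1 member was called above 0 and 0 below by limma, against 10.7% above and 1.72% below, with 4 above and 0 below at an unadjusted p under 0.05. It was Zfp36l1, with 0.57 ± 0.17 (limma adjusted p = 0.0476), and 14 of 19 alternatives ended its call. Its limma adjusted p ran from 0.0167 to 0.17 over them. Zfp36 had 0.44 ± 0.15 (limma adjusted p = 0.0737) and Zfp36l2 had 0.46 ± 0.14 (limma adjusted p = 0.0554). The estimates of the 3 family members were thus of like size, and 1 of the 3 passed. Tial1, outside the family, was of like size too, with 0.52 ± 0.17 (limma adjusted p = 0.0671). Elavl1 had 0.32, Khsrp 0.26, Zc3h12a 0.17 and Tia1 0.12, where the median of all tested genes was 0.13.

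Other proteins that bind AU-rich or U-rich elements, from a list of 20, were described beside the members. Of the 15 tested, 5 were higher and 0 lower in KO against WT at 0 h, 6 higher and 1 lower at 4 h, and 10 higher and 0 lower at 8 h by limma, with a median log2 change of 0.60 at 8 h, where all tested genes had 0.20. Of all tested genes, 14.3% were higher and 11.5% lower at 0 h, 24.9% higher and 13.7% lower at 4 h, and 37.3% higher and 12.1% lower at 8 h, which is the background for this list and those below. At an unadjusted p under 0.05 it was 6 higher and 0 lower at 0 h and 10 higher and 0 lower at 8 h. Ncl (nucleolin), an RNA-binding protein of the nucleolus, had 1.44 ± 0.09 at 8 h (limma adjusted p = 1.11e-07). Hnrnpa0 had 1.12 ± 0.07, Ptbp1, a splicing repressor, 0.98 ± 0.08, and Hnrnpc 0.88 ± 0.07. The difference of the 8 h loss between genotypes was called above 0 by limma for 6 of the 15 and below 0 for 0, against 17.3% of all tested genes above and 2.63% below, and for 7 and 0 at an unadjusted p under 0.05. For the 4 h loss it was above 0 for 0 and below 0 for 0, against 0.0538% and 0.296% of all tested genes. In the added contrast between 4 and 8 h it was above 0 for 6 and below 0 for 0, against 10.7% and 1.72%.

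The machinery that the Zfp36 family brings to its targets was measured as 28 genes of deadenylation, decapping and the exosome, all tested. In KO against WT, 3 were higher and 0 lower at 0 h, 14 higher and 1 lower at 4 h, and 17 higher and 0 lower at 8 h by limma, with a median of 0.43 at 8 h where all genes had 0.20. At an unadjusted p under 0.05 it was 6 higher and 1 lower at 0 h and 18 higher and 0 lower at 8 h. The exosome subunits Exosc2 and Exosc9 had 1.43 ± 0.12 and 0.91 ± 0.09 at 8 h, and Cnot6, a deadenylase of CCR4-NOT, had 0.76 ± 0.09. Of 19 genes of the signalling that regulates the members, which includes the kinase Mapkapk2 that phosphorylates Zfp36, 0 were called at 0 h by limma, with 1 higher and 4 lower at an unadjusted p under 0.05, and 6 were higher and 2 lower at 4 h and 11 higher and 2 lower at 8 h. Ywhae, an adapter of phosphorylated proteins, had 0.94 ± 0.09 at 8 h, and Map2k3, a kinase upstream of p38, had 0.75 ± 0.09.

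mRNAs known to carry AU-rich elements, from a list of 41 with 39 tested, gave more calls lower than higher in KO. In KO against WT, 7 were higher and 15 lower at 0 h, 5 higher and 23 lower at 4 h, and 7 higher and 18 lower at 8 h, with medians of -0.17, -0.59 and -0.40 where all tested genes had 0.06, 0.10 and 0.20. The shares of all tested genes called lower were 11.5%, 13.7% and 12.1% at 0, 4 and 8 h. At 4 h Il1rn, the interleukin 1 receptor antagonist, had -2.47 ± 0.10, the AP-1 subunit Junb -1.54 ± 0.08, the chemokine Ccl2 -1.16 ± 0.06 and the immediate early gene Ier3 -1.10 ± 0.08, and Il1rn and Ccl2 were already lower at 0 h, by -2.51 and -1.03. The difference of the 4 h loss between genotypes was called by limma below 0 for 6 of 39 and above 0 for 0, against 0.296% and 0.0538% of all tested genes, and for 13 and 3 at an unadjusted p under 0.05. Those shares are at the adjusted threshold and are no background for the 13 and 3. Junb had -1.42 ± 0.12 (limma adjusted p = 0.000598), Ier2, another immediate early gene, -1.02 ± 0.15 (limma adjusted p = 0.0167), the cytokine Tnf -1.01 ± 0.16 (limma adjusted p = 0.0239) and Ier3 -0.79 ± 0.11 (limma adjusted p = 0.0123). Over 8 h the genotype difference was mixed, called above 0 for 3 of the 39 and below 0 for 5, against 17.3% and 2.63% of all tested genes. Ccnd3 had 0.75 ± 0.09 and Nfkbia -1.16 ± 0.18 there. In the added contrast between 4 and 8 h it was above 0 for 8 and below 0 for 0, against 10.7% and 1.72%. Between 4 and 8 h, 17 of the 39 were higher and 4 lower in KO, where 8.97% of all tested genes were higher and 43.1% lower. In WT 8 of the 39 were higher and 7 lower, where 6.9% of all tested genes were higher and 54.8% lower. The 10 myeloid markers gave 2 higher and 5 lower in KO against WT at 4 h, and their part in these counts was not tested.

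Among the 10430 tested genes with an annotated 3′ UTR, the median loss from 0 h was larger with the nonamer than without it in both genotypes. The 767 genes with at least 1 nonamer had a median log2 change at 4 h of -1.14 in KO and -1.19 in WT, against -0.68 in KO and -0.79 in WT for the 9663 genes without it. At 8 h the medians were -1.54 in KO and -1.65 in WT with the nonamer, against -1.16 in KO and -1.41 in WT without it. Between 4 and 8 h the order was the other way round. The medians were -0.24 in KO and -0.35 in WT with the nonamer, against -0.29 in KO and -0.45 in WT without it. This turn was not seen with ATTTA at least 3 times as the motif. Its medians were -0.34 in KO and -0.45 in WT, against -0.25 in KO and -0.44 in WT with fewer. Over this interval 37.8% of genes with the nonamer and 44.9% without it were called lower in KO, and 49.3% with it and 56.9% without it in WT. Genes with the nonamer also had longer 3′ UTRs, with a median of 2239 nt against 924 nt, and the part of length was not tested. The genotype difference of the 4 h change had a median of 0.05 with the nonamer and 0.06 without it, and it was called below 0 for 6 of 767 genes with the nonamer and 25 of 9663 without it.

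The genes whose log2(TPM + 1) followed each member most closely over the 12 libraries, out of 7670 candidates with a mean of at least 5 TPM, are given as a description of libraries that share time and genotype. They were Tob1 (Pearson r = 0.993) and Tnf (0.990) for Zfp36, Tlr4 (0.994) and Trim12a (0.987) for Zfp36l1, and Trmt10c (0.998) and Pias1 (0.998) for Zfp36l2. Zc3h12a was followed by Piezo1 (0.980) and Cd274 (0.973), the lowest values of the 8 members. Rbm10 (0.998) and Espl1 (0.997) were closest to Elavl1, BC005537 (0.998) and Pnn (0.997) to Khsrp, Rnf125 (0.995) and Trabd (0.995) to Tia1, and Tyw1 (0.996) and Prkrir (0.995) to Tial1.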

How the data were processed

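Values are TPM per gene as deposited, 1 column for each of 12 libraries. Per the labels' protocols, TRIzol RNA was made into stranded mRNA libraries. Per the submitters' processing notes, STAR, RSEM and mm10 were used. The sources used here do not give their versions or the annotation. TPM carry no depth and no added RNA standard is named, so no counting interval could be given. Here log2(TPM + 1), which understates changes of low genes, was fitted with limma 3.58.1 (R 4.3.3) for the 11152 genes that reached 1 TPM in 2 or more libraries. The fit had 1 mean for each of 6 groups, 6 residual degrees of freedom and a trend on mean expression, with Benjamini-Hochberg adjustment over all tested genes and a threshold of 0.05, and was tested on simulated data. For 3′ UTRs, 1 basic protein-coding transcript per gene symbol was taken from GENCODE M21, preferring APPRIS principal ones and then the longest 3′ UTR, and 93.5% of tested genes had one. The members and lists (other AU-rich element binders, decay machinery, signalling, AU-rich targets, housekeeping genes and cell type markers) were chosen with earlier results of these data known. All 8 members were tested in every comparison, and all 8 are given by value for KO against WT. In other comparisons some members are given only within counts. List members were named from the 4 smallest p, with the 2 genes most alike in pattern. Alternatives were 2 other scalings, no filter, a mean of 5 TPM or more, a pseudocount of 0.1, no trend, the replicate number as a block, leaving out each library, and ATTTA at least 3 times. Protein motifs were not analysed here. Some marker genes are not reported here.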

Additional observations from a re-analysis of the deposited data

Results flagged for a closer look

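The change after actinomycin D differed between KO and WT cells, by the test of the difference itself (KO minus WT, log2(TPM + 1), limma), for 3 members of the Zfp36 family and for Tial1. Zfp36 had -0.98 ± 0.15 (SE, adjusted p = 0.0167, limma) over 4 h and -0.55 ± 0.15 (adjusted p = 0.0219, limma) over 8 h, the larger loss being in KO. Zfp36l2 had -0.76 ± 0.14 over 4 h (adjusted p = 0.0488, limma), also with the larger loss in KO. Tial1 had 0.83 ± 0.17 over 8 h (adjusted p = 0.00564, limma), with the smaller loss in KO. Zfp36l1 had 0.57 ± 0.17 between 4 and 8 h (adjusted p = 0.0476, limma), in the contrast added after the values were seen. The Tial1 call held in all 19 alternatives. The call of Zfp36 was lost in 7 of 19 alternatives over 4 h and in 4 of 19 over 8 h, that of Zfp36l2 in 12 of 19, and that of Zfp36l1 in 14 of 19, including both other scalings and the replicate block.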

How the results depend on the processing

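TPM give no depth and no absolute amount, and scaling moved the changes over time and the 8 h counts. The counts of members under alternatives in this section stand without the share of all tested genes called under the same setting. They show how far calls moved and not whether members differ from other genes. The genotype differences of Zfp36 and Zfp36l2 over 4 h held under both other scalings, and 6 and 9 of the fits without a library ended them. Under median-ratio scaling, KO against WT at 8 h gave 2 members higher and 4 lower, against 4 and 2 on TPM as deposited. The members called were 4 lower for KO 4 h against 0 h, 1 higher and 5 lower for KO 8 h against 0 h, 4 higher and 2 lower for KO 8 h against 4 h, 3 lower for WT 4 h against 0 h, 2 higher and 4 lower for WT 8 h against 0 h, and 3 higher and 3 lower for WT 8 h against 4 h. The genotype difference gave 3 lower over 8 h and 0 higher between 4 and 8 h. Under it the sign turned, as scaled log2 values, in KO at 4 h for Tia1 (0.21), in KO at 8 h for Tia1 (0.18), Tial1 (0.0041) and Zc3h12a (0.80), and in KO between 4 and 8 h for Tial1 (0.079). It also turned in WT at 4 h for Tia1 (0.14) and Zc3h12a (0.12), in WT at 8 h for Zfp36 (0.26), Zfp36l1 (0.026), Tia1 (0.14) and Zc3h12a (1.04), and in WT between 4 and 8 h for Zfp36 (0.38), Zfp36l1 (0.22) and Zfp36l2 (0.44). Without a call on either scale it turned for Khsrp in KO against WT at 4 h (-0.031), and in the genotype difference for Elavl1 over 4 h (-0.025), Khsrp (-0.067) and Zc3h12a (-0.24) over 8 h, and Tia1 (-0.027) and Zc3h12a (-0.015) between 4 and 8 h. By construction the scaling moves the median change of all genes, at 8 h from -1.16 to -0.03 in KO and from -1.40 to -0.07 in WT. That median moved less in KO against WT at 4 h, from 0.10 to 0.03. In the genotype difference over 4 h it moved from 0.05 to -0.01. The part of this shift in each turn was not tested.

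Housekeeping scaling gave 2 members lower in KO against WT at 0 h, 2 higher and 4 lower at 8 h, 1 higher for WT 8 h against 4 h, 2 lower in the genotype difference over 8 h and 0 higher between 4 and 8 h. It turned the sign of Tial1 in KO against WT at 0 h (-0.034) and, in the genotype difference, of Zc3h12a over 8 h (-0.13) and of Tia1 (-0.076) and Zc3h12a (-0.049) between 4 and 8 h. No filter gave 0 higher for KO 8 h against 4 h, 1 lower in the genotype difference over 4 h and 0 higher between 4 and 8 h, and a mean of at least 5 TPM gave 2 higher between 4 and 8 h. A pseudocount of 0.1 gave 1 lower over 4 h and 2 higher between 4 and 8 h, and no trend gave 0 lower over 4 h and 0 higher between 4 and 8 h. The cause was not tested. The 25 housekeeping genes were themselves not level between the genotypes. In KO against WT, limma called 11 of them higher and 4 lower at 0 h. It called 6 higher and 4 lower at 4 h, and 18 higher and 4 lower at 8 h. Scaling to these genes is therefore a limited check of the KO against WT calls.

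Leaving out each library in turn gave 0 to 1 members lower in KO against WT at 0 h, 0 to 1 higher at 4 h, 2 to 4 higher at 8 h, 0 to 2 higher for KO 8 h against 4 h, and in the genotype difference 0 to 2 lower over 4 h, 0 to 2 lower over 8 h and 0 to 2 higher between 4 and 8 h. Values that crossed 0 in this way, none of them called, ran in KO against WT from -0.0055 to 0.30 (Khsrp, 0 h), from -0.14 to 0.021 (Zfp36, 0 h) and from -0.023 to 0.15 (Khsrp, 4 h). In the genotype difference they ran over 4 h from -0.023 to 0.11 (Elavl1), from -0.24 to 0.067 (Khsrp) and from -0.31 to 0.033 (Zc3h12a), over 8 h from -0.15 to 0.20 (Zc3h12a), and between 4 and 8 h from -0.036 to 0.28 (Tia1) and from -0.0022 to 0.33 (Zc3h12a). A group left with 1 library was assumed to vary like the others. With the replicate number as a block, 2 members were higher for KO 8 h against 4 h in place of 1, and 2801 in place of 2871 genes were called in KO against WT at 0 h. Deviations of libraries with the same number correlated at -0.083 to 0.051 over 15 pairs of groups. Whether libraries with the same number came from the same culture was not tested. Taking ATTTA at least 3 times in place of the nonamer, the median change with minus without the motif was -0.59 against -0.38 in KO at 8 h, -0.50 against -0.40 in WT at 4 h and -0.46 against -0.24 in WT at 8 h.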
